A study of Harpegnathos saltator with 75 samples.

Results

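The caste difference in the ovary of the jumping ant Harpegnathos saltator was compared between day 10 and day 3 of the dueling tournament. The comparison used 20 of the 75 libraries of the series, all ovary libraries labelled as prospective gamergate or prospective worker, with 5 libraries in each of 4 groups. The groups were day 3 workers, day 3 gamergates, day 10 workers and day 10 gamergates. A further 5 ovary libraries from workers at day 0 served as a reference and added to the estimate of spread. The other 50 libraries come from fat body and from brain without its visual part. No genotype, agent or age is given beyond caste and day, and the labels do not say whether a library holds 1 ant or several. They also do not say that replicates of a group came from separate ants. Each p-value therefore sets a difference against the library-to-library spread, which may be technical.

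When a Harpegnathos colony loses its reproductives, workers duel with their antennae, and the winners become gamergates, which are workers that mate and lay eggs. The insect ovary is built of ovarioles, tubes in which germ cells, nurse cells and follicle cells form eggs, and its RNA follows how many eggs are growing and at which stage. In such bulk samples, fewer cells of a type and less RNA per cell cannot be told apart. The files give gene identifiers that are not paired with names, so no function is given for any gene below.

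The quantity examined was the interaction, the log2 difference between gamergates and workers at day 10 minus the same difference at day 3. A gene is called higher when the gamergate side gained relative to workers between the days, and lower when it lost. Such a gain can be made by a rise in gamergates, by a fall in workers, or by both. Each called gene was therefore placed by which simple comparisons of the same fit were also called. Genes placed with day 10 gamergates differed between castes at day 10 and between the days in gamergates, with no call between the days in workers. Genes placed with day 10 workers showed the reverse, and genes placed with both were called in each caste in opposite directions. A comparison that is not called is not shown to be 0, so the placing is a description.

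Reads assigned to genes numbered 737818 to 3558381 in the 20 libraries. Libraries standing apart are described first because several results rest on them. Positions were read from correlations of the libraries' log2 levels after centring on the ovary mean. Day 10 gamergates 1 to 4 lay close to each other (mean correlations of 0.766 to 0.804), whereas day 10 gamergate 5 had a mean correlation of -0.348 with them and lay nearest to day 10 worker 1. Day 3 gamergate 1 and day 3 worker 4 both lay nearest to day 10 gamergate 3, with correlations of 0.667 and 0.653. Day 10 worker 5 lay nearest to a day 0 library (0.356). A single identifier, HSALG004475.2, took up 14.2% to 17.6% of assigned reads in 3 libraries (day 10 gamergates 1, 2 and 4). HSALG004473.2 held 6.27% in day 3 gamergate 1. Neither was called in the interaction, with log2 differences of 3.92 (edgeR adjusted p = 0.306) for HSALG004475.2 and -5.30 (edgeR adjusted p = 0.609) for HSALG004473.2. Labels place all day 3 libraries of both castes on 1 flow cell and all day 10 libraries on another, with workers on lane 1 and gamergates on lane 2. Differences between flow cells and between lanes that add up therefore cancel in the interaction, whereas the change between the days within a caste carries the flow cell. The difference between castes within a day carries the lane. Castes, days and an effect of a single flow cell and lane together cannot be told apart in these 20 libraries.

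Of 9150 genes tested, 1828 had an interaction at an adjusted p below 0.05 (edgeR quasi-likelihood test), which is 20% of them. The gamergate side gained for 1042 genes (11.4%) and lost for 786 (8.59%), with median log2 interactions of 1.05 and -1.06. Interactions beyond 2-fold were seen in 563 genes that gained and 427 that lost. Over all genes tested the median interaction was 0.04. At day 10 alone 4036 genes (44.1%) were called between castes, a comparison that carries the lane. With flow cell and lane as 2 additive terms, set by the day 0 libraries alone, 3 genes were called between castes at day 10. At day 3 edgeR called 0 genes (0%), with 362 at an unadjusted p below 0.05 (3.96% of those tested), while DESeq2 called 5 and limma voom with quality weights 0 (808 unadjusted). Leaving out any 1 library of the 25 kept the number of interaction genes between 898 and 2774. It moved the number by more than 1.5 times for day 3 worker 4 (898), day 3 gamergate 4 (1078), day 10 worker 3 (1129), day 3 gamergate 3 (1148) and day 10 gamergate 5 (2774). With a term for each combination of flow cell and lane, set by the day 0 libraries alone, edgeR called 0 genes and 390 had an unadjusted p below 0.05. In that fit 99.3% of the 1828 genes had the sign they had without the term. Their median interaction in the called direction was 0.99 with the term against 1.05 without it, and the median standard error was 0.668.

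The castes moved apart in opposite directions for most of these genes. For 1734 of the 1828 the changes from day 3 to day 10 had opposite signs in gamergates and workers, a count that the choice of genes by the interaction favours. Counted in the direction of each gene's interaction, the median change from day 3 to day 10 was 0.45 in gamergates and -0.60 in workers on the log2 scale. Against day 0, the same genes stood at medians of 0.36 in day 10 gamergates and -0.61 in day 10 workers, with -0.09 in day 3 gamergates and 0.00 in day 3 workers. The gamergate change made up a median of 42.9% of a gene's interaction, with quartiles of 29.0% and 56.8%. For the same genes that median was 43.0% with DESeq2 and 39.9% without day 10 worker 5. It was 50.6% without day 3 worker 4 and 54.5% with limma voom quality weights. Without day 10 gamergate 5, day 3 gamergate 1 and day 3 worker 4 it was 56.2%, and with flow cell and lane as 2 terms 57.4%. The changes between the days carry the flow cell, and which caste contributed more depended on the fit.

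**Figure D1:**
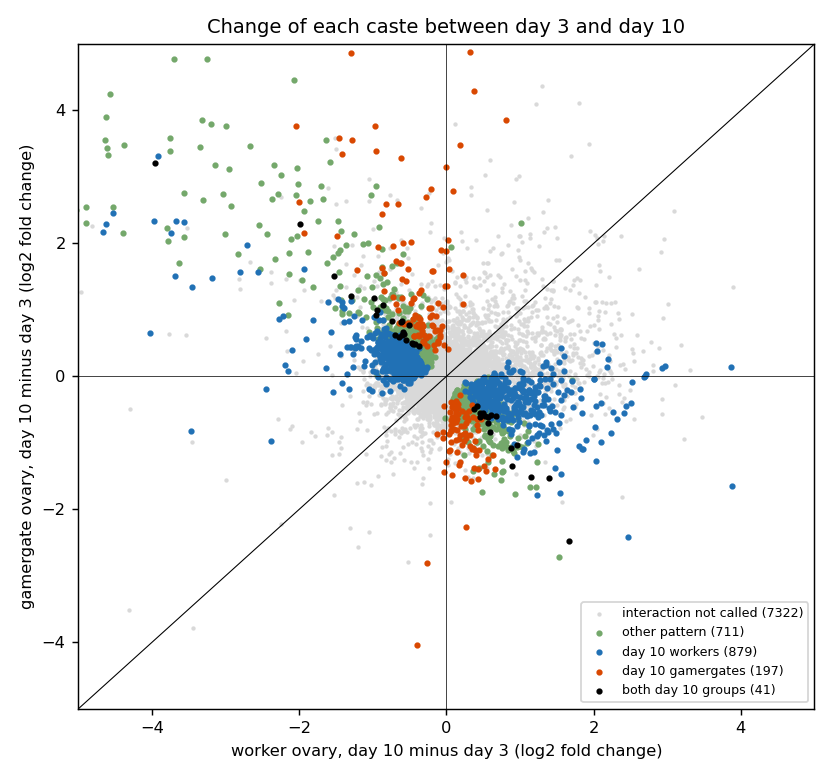
Each point is a gene, with the log2 change from day 3 to day 10 in worker ovaries on the x axis and in gamergate ovaries on the y axis (5 libraries per group). The line marks equal changes. Coloured genes were called in the interaction and lie mostly at the upper left and lower right, and 44 genes lie outside the plotted range of 5 log2 units.

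With all libraries and no term for flow cell, most of the genes that could be placed were placed with day 10 workers. Every placing uses changes between the days within a caste, which carry the flow cell. Placing with a day 10 group also uses the caste difference at day 10, which carries the lane. With flow cell and lane as 2 additive terms, 896 higher and 734 lower interactions were called and 0 genes were placed with any group. In worker ovaries 1806 genes (19.7%) were called between day 3 and day 10, against 381 (4.16%) in gamergate ovaries. Accordingly 879 of the 1828 genes (48.1%) were placed with day 10 workers, 489 of them higher and 390 lower in the interaction. Day 10 gamergates took 197 genes (10.8%), 109 higher and 88 lower, and both day 10 groups 41 genes, 24 higher and 17 lower. Placing a gene with a day 3 group needed a caste call at day 3, of which there were 0, so those classes were empty by construction and say nothing of the day 3 groups. The other 711 genes belonged to no single group. Of these, 372 higher and 265 lower genes were called between castes at day 10 but in neither caste between the days.

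Within the classes, genes placed with day 10 workers had median changes, in the direction of the interaction, of -0.70 in workers and 0.28 in gamergates. Those placed with day 10 gamergates had 0.93 in gamergates and -0.27 in workers. In the 41 genes placed with both, the medians were 0.77 and -0.61. The unplaced 711 genes had 0.56 and -0.50. A gene in a single-caste class thus usually showed a change of the opposite sign, not past the threshold, in the other caste.

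Which caste's change was larger was tested with the sum of both changes, which carries the difference between flow cells once for each caste. Over all genes 573 (6.26%) were called in this contrast. Among the 1828 interaction genes the gamergate change was larger for 24 and the worker change for 83, and for 1721 the order was not settled. With flow cell and lane as 2 additive terms both counts were 0. Each of the 41 genes placed with both groups was in the last set.

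The order of the classes changed with the libraries. Without day 3 worker 4, which lay among day 10 gamergates, 274 genes were placed with day 10 gamergates, 298 with day 10 workers and 39 with both. Without day 3 gamergate 1 as well, the numbers were 533, 299 and 60 of 1213 genes called. Without these and day 10 gamergate 5, 2402 genes were called, with 1145 placed with day 10 gamergates, 561 with day 10 workers and 221 with both. There the gamergate change was larger for 398 genes and the worker change for 69. Without day 10 gamergate 5 alone the numbers were 668, 1149 and 228. Without day 10 worker 5 alone 1539 genes were placed with workers. Down-weighting of outlying libraries with limma voom placed 1349 genes with gamergates, 1112 with workers and 558 with both. Of the 879 genes placed with day 10 workers in all libraries, 370 stayed there without the 3 libraries, 98 went to gamergates, 162 to both, 128 to no single group, and 121 were no longer called. Of the 197 placed with gamergates, 186 stayed.

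**Figure D2:**
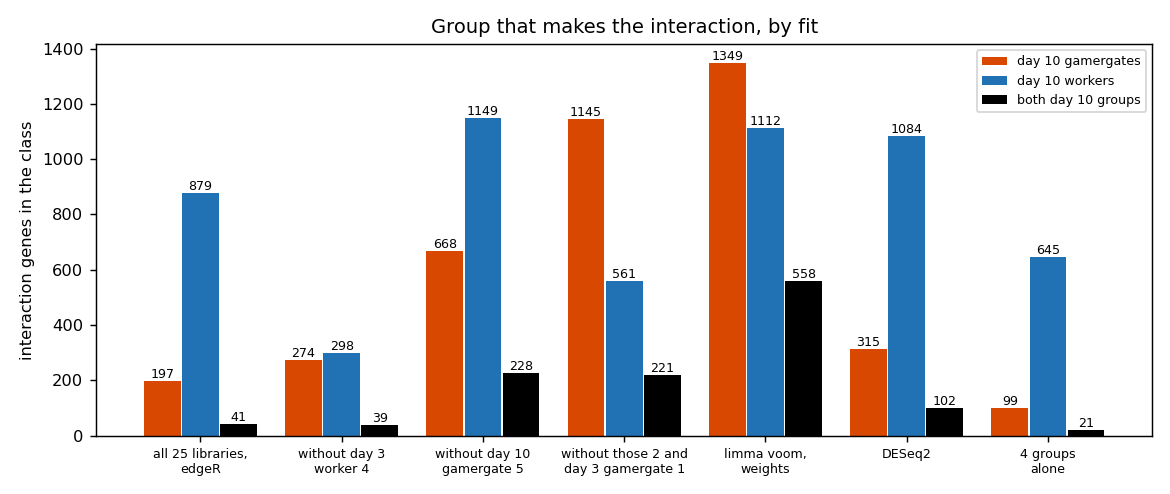
Bars give the number of interaction genes placed with day 10 gamergates, day 10 workers or both day 10 groups, for 7 fits on the x axis. Day 10 workers lead with all 25 libraries in edgeR (879 against 197), and day 10 gamergates lead without the 3 libraries that stand apart (1145 against 561) and with limma voom quality weights (1349 against 1112).

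The position of each library on the called genes was described with a score. The score is a library's median log2 level over the 1042 higher genes, relative to the day 0 mean. Day 10 gamergates 1 to 5 scored 0.43, 0.46, 0.47, 0.39 and 0.02. Day 10 workers 1 to 5 scored -0.56, -0.61, -0.72, -0.54 and -0.22, so that the castes did not overlap at day 10. Day 3 gamergates scored 0.14, -0.02, -0.17, -0.23 and -0.03. Day 3 workers scored -0.21, -0.16, -0.17, 0.45 and 0.00, so that worker 4 alone was at the level of day 10 gamergates. The scores describe the genes that the same libraries selected. Over the 786 lower genes the day 10 castes also did not overlap, at -0.43 to -0.06 in gamergates and 0.26 to 0.86 in workers.

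**Figure D3:**
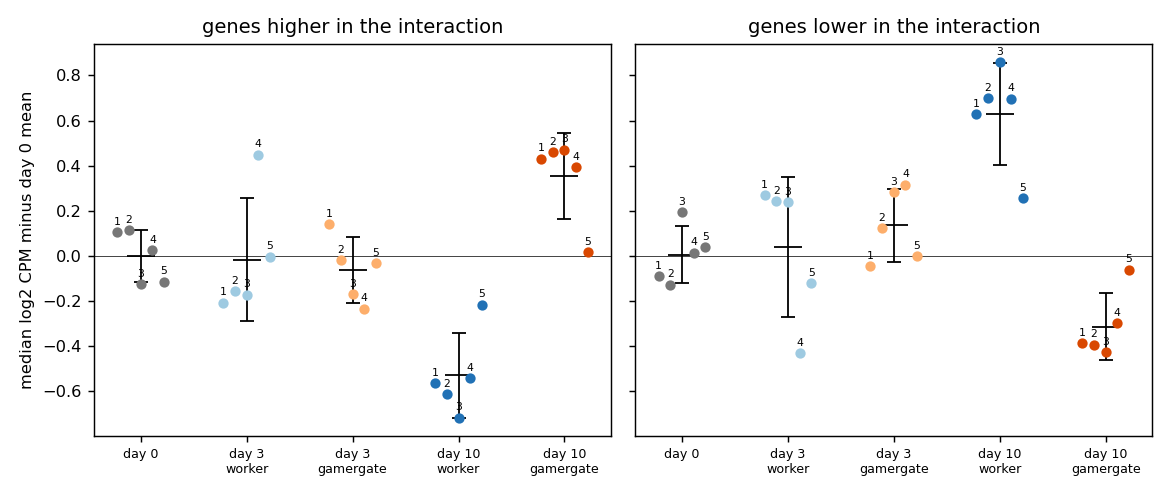
Points are the 25 ovary libraries, numbered by replicate, and the y axis is the median log2 CPM minus the day 0 mean over the 1042 genes higher (left) or the 786 lower (right) in the interaction. Bars are means ± SD of 5 libraries. Day 3 worker 4 lies at 0.45 on the left, beside day 10 gamergates 1 to 4, and day 10 gamergate 5 lies at 0.02.

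A set of 808 of the 1828 genes (44.2%), 425 higher and 383 lower, was called whichever single library was left out. Of these, 775 were also called in both fits without the libraries that stand apart. By the fit on all libraries, 115 of the 775 were placed with day 10 gamergates, 491 with day 10 workers, 40 with both and 129 with no single group.

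The identifiers described next were, apart from those added for their p-values, required to show no overlap between the castes at day 10, which 17.6% of all genes tested did, so that separation is not a finding for them. With a term for each combination of flow cell and lane none of the 15 was called (edgeR adjusted p of 0.908 or more).

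HSALG004877.1 had 1 of the smallest p-values and was added after its values were seen. Its levels (CPM, reads per 1e+06 assigned reads after scaling) were 94.9, 104, 87.3, 119.6 and 93.9 in day 3 workers 1 to 5 and 92.1, 107, 87.7, 90.8 and 96.6 in day 3 gamergates. At day 10 they were 73.9, 75.2, 72.7, 72.4 and 65.9 in workers and 117, 143, 139, 146 and 131 in gamergates. The castes overlapped at day 3 and were fully apart at day 10, with the 5 day 0 libraries (87.5 to 107) between them. The interaction was 0.98 (SE 0.138, edgeR adjusted p = 0.00112), made by a rise of 0.51 in gamergates (SE 0.0967, edgeR adjusted p = 0.00834) and a change of -0.47 in workers (SE 0.0984, edgeR adjusted p = 0.0041). It was placed with both groups.

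HSALG006197.2, also among the smallest p-values and added after its values were seen, went the other way. Its levels were 402, 393, 427, 233 and 299 CPM in day 3 workers and 399.5, 433, 442, 476 and 337 in day 3 gamergates. They were 462, 541, 628, 550.3 and 409 in day 10 workers and 247, 246, 266, 258 and 271 in day 10 gamergates. All gamergates were below all workers at day 10, and the castes overlapped at day 3. The interaction was -1.26 (SE 0.198, edgeR adjusted p = 0.00184), with -0.70 in gamergates and 0.56 in workers, both called.

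HSALG002203.2, named both by the fixed rule and by its p-value, was at 4.28, 8.02, 5.76, 4.08 and 3.8 CPM in day 3 workers and at 4.98, 7.995, 7.53, 4.86 and 5.74 in day 3 gamergates. Day 10 workers had 14.4, 9.77, 19.2, 27.2 and 12.5 CPM and day 10 gamergates 3.07, 0, 1.59, 0 and 0.708. At day 0 it was at 12.0 to 35.8 CPM, so all day 3 libraries and all day 10 gamergates lay below day 0, while 4 of 5 day 10 workers lay within its range. The interaction was -4.13 (SE 0.675, edgeR adjusted p = 0.00291), with -2.47 in gamergates and 1.66 in workers. HSALG024763.1 shared this pattern at day 10, with 18.2 to 96.0 CPM in workers and 6.35 to 12.7 in gamergates, against 10.9 to 32.8 and 13.7 to 36.0 at day 3. Its interaction was -2.91 (SE 0.563, edgeR adjusted p = 0.00434).

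Among genes placed with day 10 workers, HSALG011353.1 was added after its values were seen. It stood at 44.2, 20.1, 40.3, 27.9 and 26.1 CPM in day 3 workers and at 44.8, 30.4, 24.2, 22.2 and 28.7 in day 3 gamergates. Day 10 workers had 12.0, 8.27, 5.49, 5.43 and 7.96 CPM, and day 10 gamergates 52.2, 33.7, 47.6, 36.0 and 48.9. Day 10 workers thus lay below every other library of the 4 groups, while the day 0 libraries were at 10.3 to 16.7 CPM. The interaction was 2.48 (SE 0.353, edgeR adjusted p = 0.00112), with -1.91 in workers (edgeR adjusted p = 0.000242) and 0.56 in gamergates (edgeR adjusted p = 0.147). The worker change was the larger (sum of changes -1.35, SE 0.351, edgeR adjusted p = 0.0253).

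HSALG021758.1 was the identifier with the largest negative interaction under the rule and was placed with day 10 workers. It was at 1.43, 4.68, 0.960, 0 and 0.543 CPM in day 3 workers and at 23.6, 0.800, 0, 1.62 and 2.61 in day 3 gamergates. Day 10 workers had 33.1, 18.8, 10.97, 29.9 and 21.6 CPM and day 10 gamergates 1.02, 0, 0.794, 0.947 and 3.54. Day 3 gamergate 1 alone reached the level of day 10 workers at day 3. The interaction of -5.53 (SE 1.51, edgeR adjusted p = 0.0176) lost its call without that library (-3.79, edgeR adjusted p = 0.0572) and with limma voom quality weights (-3.57, limma adjusted p = 0.0617). HSALG000397.2 had 57 reads in day 10 workers and 2 in day 10 gamergates, a ratio of 21.5 with a counting interval of 5.68 to 182 (exact binomial, 95%, covering counting error only). Its interaction was -4.88 (SE 1.56, edgeR adjusted p = 0.0325) and was called in 16 of 25 fits that left out 1 library (edgeR adjusted p up to 0.0695). With limma voom quality weights it was -2.21 (limma adjusted p = 0.205).

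Among genes placed with day 10 gamergates, HSALG026927.1 fell there. It was at 15.7, 23.4, 22.1, 5.43 and 9.23 CPM in day 3 workers, 21.2, 9.59, 16.1, 12.4 and 6.26 in day 3 gamergates and 6.45, 6.01, 17.8, 19.9 and 9.09 in day 10 workers. Day 10 gamergates had 1.02, 0, 1.59, 0.947 and 0 CPM. All 5 libraries lay below every library of the other 3 groups. The interaction was -3.64 (SE 0.845, edgeR adjusted p = 0.00841), and the gamergate change of -4.04 was larger than that of workers (-0.40; sum of changes -4.44, SE 0.834, edgeR adjusted p = 0.00269). HSALG024989.1 followed with 0 to 3.26 CPM in day 10 gamergates and 5.26 to 14.5 in day 10 workers. At day 3 it was at 1.24 to 16.2 CPM in gamergates and 4.08 to 18.05 in workers. Its interaction of -2.54 (SE 0.855, edgeR adjusted p = 0.0394) was called in 15 of the 25 fits (edgeR adjusted p up to 0.077), and with limma voom quality weights it was -1.78 (limma adjusted p = 0.0759).

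The identifiers with the largest positive interactions had levels spread over several orders of magnitude within groups. HSALG024994.1, placed with day 10 gamergates, had 22065, 25625, 2227, 30127 and 19.8 CPM there and 9.38, 6.01, 5.49, 0.905 and 3.41 CPM in day 10 workers. At day 3 it had 4.99, 5.35, 5.76, 14.9 and 824 CPM in workers and 326, 3.20, 31.2, 42.7 and 1.57 in gamergates. Day 10 gamergate 5 and day 3 worker 5 thus departed from their groups. The interaction of 12.61 (SE 2.64, edgeR adjusted p = 0.0062) was 8.17 without day 3 worker 5 (edgeR adjusted p = 0.0226). HSALG001380.2 showed the same day 10 pattern, with 672, 1085, 97.6, 1620.4 and 4.25 CPM in gamergates and at most 2.74 CPM in workers. At day 3 it was at 0 to 2.88 CPM in workers and 0.522 to 22.4 in gamergates. Its interaction of 7.76 (SE 2.70, edgeR adjusted p = 0.0478) was called in only 5 of 25 fits that left out 1 library (edgeR adjusted p up to 0.131), and with limma voom quality weights it had a limma adjusted p of 0.248.

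HSALG011967.1 had the largest interaction, 18.72 (SE 3.11, edgeR adjusted p = 0.0042), and was placed with both groups. Day 10 gamergates had 8.19, 2497, 1152, 1775 and 2.12 CPM, and day 10 workers 0.880, 0.752, 0, 0 and 0. Day 3 workers had 948, 15.4, 3.84, 3.40 and 28.2 CPM, whereas day 3 gamergates had 0, 0, 0, 1.08 and 2.09. Every day 3 worker was thus above every day 3 gamergate, in the opposite order to day 10, yet the day 3 caste difference was not called (log2 -7.89, SE 2.14, edgeR adjusted p = 0.983). At day 0 the ovary libraries had 0 to 0.725 CPM. Against day 0, day 3 workers were higher by 9.27 (edgeR adjusted p = 0.0185), while day 10 workers differed by 0.88 (edgeR adjusted p = 0.9). The change in workers between the days was thus one from a day 3 level above day 0, although the placing names the day 10 group. The call was lost with limma voom quality weights (15.50, SE 11.14, limma adjusted p = 0.274), and without day 3 worker 1 the interaction was 14.84 (edgeR adjusted p = 0.00348). In fat body the gene ranged from 0 to 2465 CPM among day 0 libraries.

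For 3 further identifiers the worker side rested on a single library, day 3 worker 4. HSALG012250.2 had 582, 648, 669, 460.3 and 2.83 CPM in day 10 gamergates and at most 2.27 in day 10 workers. At day 3 it had 2.14, 4.68, 1.92, 787 and 3.26 CPM in workers and 269, 19.99, 7.53, 4.32 and 4.70 in gamergates. Its placing with day 10 workers thus came from 1 day 3 library at the level of day 10 gamergates. The interaction of 10.10 (SE 2.62, edgeR adjusted p = 0.0151) was 4.46 without that library (edgeR adjusted p = 0.288) and 7.77 with limma voom quality weights (limma adjusted p = 0.0665). Against day 0 it was higher by 5.89 in day 3 workers (edgeR adjusted p = 0.0482), and day 10 workers differed from day 0 by -1.10 (edgeR adjusted p = 0.791). HSALG006317.2 repeated this with 307 CPM in day 3 worker 4 and 1.63 to 3.84 in the other day 3 workers. It had 141, 100.1, 256, 38.8 and 1.42 CPM in day 10 gamergates and at most 1.17 in day 10 workers. Its interaction went from 9.79 (SE 2.41, edgeR adjusted p = 0.0119) to 5.22 (edgeR adjusted p = 0.119), with 7.26 under limma voom quality weights (limma adjusted p = 0.0636). Against day 0 its difference was 5.54 in day 3 workers (edgeR adjusted p = 0.0428) and -0.95 in day 10 workers (edgeR adjusted p = 0.802). HSALG026570.1 had 129 reads in day 10 gamergates and 0 in day 10 workers, so its CPM in gamergates was at least 57-fold higher than a worker group set to 3 reads in total. Day 3 worker 4 held 29.9 CPM of it, against 0 to 0.713 in the other day 3 workers and 0 to 2.49 in day 3 gamergates. Its fitted interaction of 11.76 (edgeR adjusted p = 0.00662) depends on the prior count, and without day 3 worker 4 its call was lost (7.82, edgeR adjusted p = 0.0803).

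**Figure D4:**
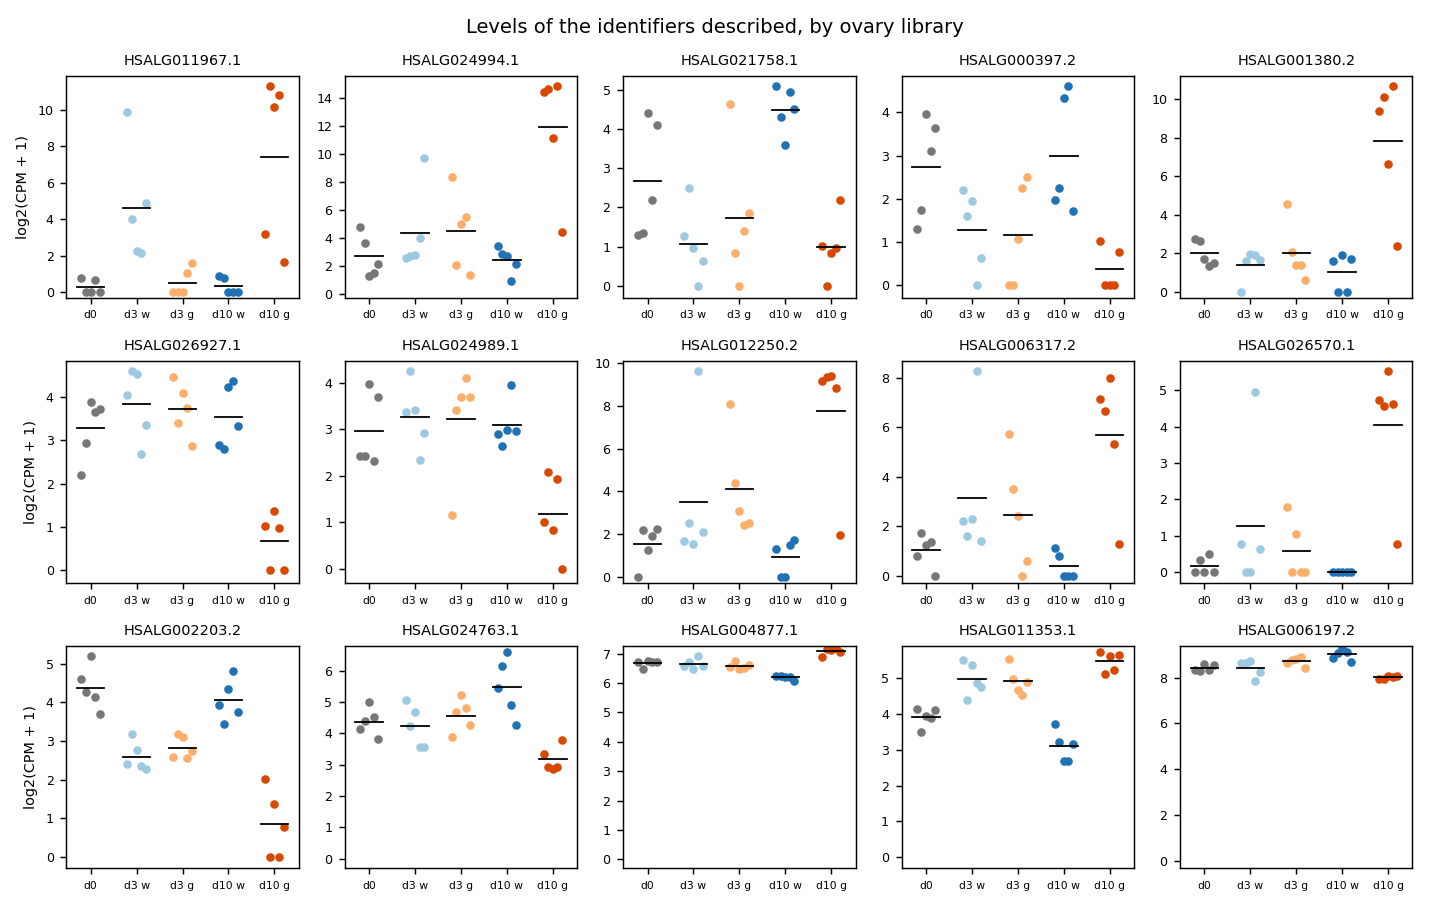
Each panel shows 1 identifier, with log2(CPM + 1) on the y axis and the 5 ovary groups on the x axis (d0 day 0, d3 day 3, d10 day 10, w worker, g gamergate). Points are libraries and lines are means of 5. HSALG012250.2, HSALG006317.2 and HSALG026570.1 show 1 high day 3 worker (787, 307 and 29.9 CPM) and 1 low day 10 gamergate (2.83, 1.42 and 0.708 CPM).

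Genes enriched in 1 tissue at day 0 were used to describe what kinds of genes took part. Of 165 ovary-enriched genes, 29 were higher and 15 lower in the interaction (17.6% and 9.09%, against 11.4% and 8.59% of all genes), with a median interaction of 0.39. Of 180 brain-enriched genes that could be tested in ovary, 12 were higher and 25 lower (6.67% and 13.9%), with a median of -0.73. Among 271 fat-body-enriched genes, 24 gained and 22 lost (8.86% and 8.12%), with a median of -0.21. Between day 3 and day 10 in workers, 25 ovary-enriched genes fell and 8 rose, while 84 fat-body-enriched genes rose and 6 fell, and 49 brain-enriched genes rose and 5 fell. As shares of those tested, 4.85% of the ovary list rose and 15.2% fell, 31.0% of the fat body list rose and 2.21% fell, and 27.2% of the brain list rose and 2.78% fell. Over all genes tested 9.89% rose and 9.85% fell in workers. In gamergates 5 ovary-enriched genes rose and 5 fell (3.03% each), 18 fat-body-enriched genes rose and 1 fell (6.64% and 0.369%), and 3 brain-enriched genes rose and 5 fell (1.67% and 2.78%), against 2.37% and 1.79% of all genes. Those within-caste changes carry the flow cell. Only 180 of 715 brain-enriched and 271 of 373 fat-body-enriched genes passed the filter on low counts, so these counts do not stand for the whole lists. The filter asked for enough reads in any 5 ovary libraries. A gene high in day 10 workers alone could thus enter, which favours rises over falls in the worker counts of these 2 lists. Such a gene also favours lower over higher interactions, and a gene high in day 10 gamergates alone the reverse. The interaction counts and medians of these 2 lists therefore carry this limit, with libraries left out as well. Without the 3 libraries that stand apart, 40 genes of the ovary list gained in the interaction and 19 lost (24.2% and 11.5%). In the brain list 17 gained and 54 lost (8.63% and 27.4%), and in the fat body list 46 and 37 (16.4% and 13.2%). Over all genes 12.9% gained and 13.1% lost. In that fit the median change between the days in gamergates was 0.27 for ovary, -0.39 for brain and 0.23 for fat body. With all libraries these medians were 0.06, 0.03 and 0.31, and both sets carry the flow cell. Without day 3 worker 4 alone, 12 ovary-enriched genes were higher and 7 lower (7.27% and 4.24%, against 5.07% and 4.59% of all genes).

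The summed share of reads in these lists varied most among day 10 workers. Ovary-enriched genes held 2.79%, 2.68%, 2.51%, 4.10% and 4.73% of reads in day 10 workers 1 to 5, and 3.58% to 5.38% in day 10 gamergates. At day 3 they held 3.61% to 5.36% in workers and 4.19% to 5.61% in gamergates. Fat-body-enriched genes held 4.40%, 4.13%, 3.41%, 2.06% and 2.41% in day 10 workers, and 1.69% to 2.66% in the other 3 groups together. Brain-enriched genes held 0.756%, 0.648%, 0.851%, 0.509% and 0.397% in day 10 workers, 0.365% to 0.498% in day 10 gamergates and 0.302% to 0.407% at day 3. Day 10 workers 1 to 3 thus had low ovary shares together with high fat body and brain shares, and these libraries are also the lowest on the score above. Day 10 worker 4 scored -0.54, close to worker 1 at -0.56, with an ovary share of 4.10% and a fat body share of 2.06%. Its brain share of 0.509% was above that of every day 10 gamergate and every day 3 library. Over the lower genes worker 4 was at 0.70, above worker 1 at 0.63. The part of those shares in the interactions was not tested. The caste difference at day 10 minus that at day 3 was 0.922 percentage points for ovary-enriched genes, with an exact permutation p of 0.230 over 63504 assignments of caste labels within days. It was -0.744 points for fat-body-enriched genes (exact permutation p = 0.218) and -0.185 for brain-enriched genes (exact permutation p = 0.110). After adjustment over the 3 shares each exact permutation p was 0.230, all two-sided. The hypothesis tested was no caste difference at either day, not equal caste differences at both. Within day 10 the unadjusted exact permutation p was 0.0714 for ovary, 0.0873 for fat body and 0.0317 for brain. Within day 3 the unadjusted exact permutation p was 0.508, 0.0476 and 0.0635. These comparisons within a day carry the lane.

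**Figure D5:**
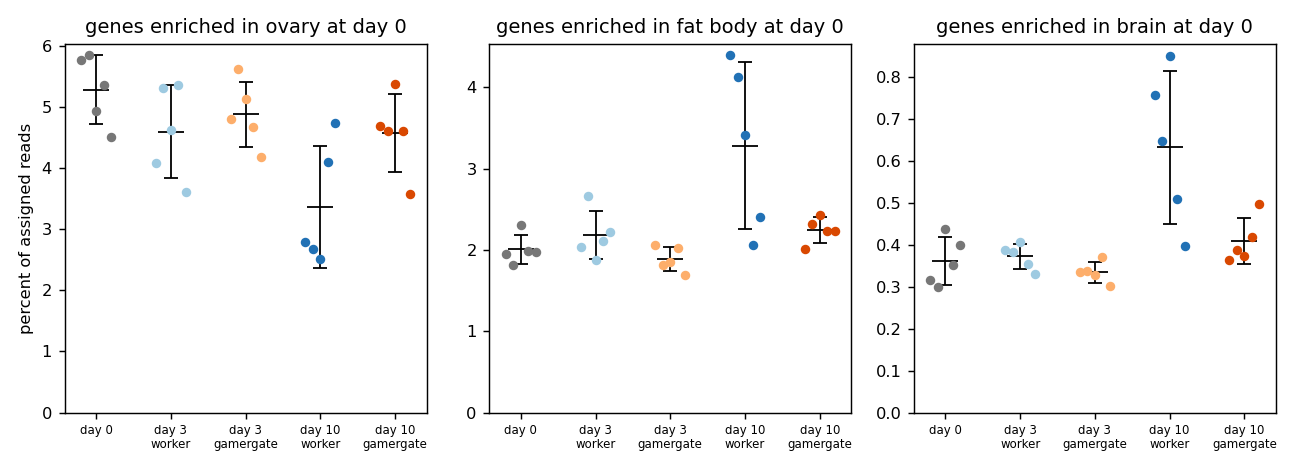
The y axis is the percent of assigned reads in genes enriched at day 0 in ovary (165), fat body (373) and brain (715), for 25 ovary libraries by group, with means ± SD of 5. Day 10 workers 1 to 3 have the lowest ovary shares, at 2.51% to 2.79%, and fat body shares of 3.41% to 4.40%.

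The same interaction was fitted in the other tissues in 1 model of all 75 libraries and 11156 genes. It was called for 1069 genes in ovary, 174 in fat body and 3 in brain. Whether the ovary interaction differed from another tissue was tested directly. The difference from fat body was called for 193 genes (1.73%), and that from brain for 26 (0.233%). Of the 1828 ovary interaction genes, 112 were among the former and 21 among the latter, each in the direction of its ovary interaction. The 1828 genes were chosen by their ovary interaction in the same libraries, which favours both these counts and the shared direction. For most of the 1828 genes a difference between tissues was therefore not shown. HSALG026927.1 differed from fat body by -8.41 (SE 1.91, edgeR adjusted p = 0.01), while it was at no more than 5.10 CPM in any day 10 fat body library. HSALG006317.2 differed from fat body by 9.67 (edgeR adjusted p = 0.0197) and from brain by 11.14 (edgeR adjusted p = 0.0365), with the dependence on day 3 worker 4 given above.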

How the data were processed

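Polyadenylated RNA was sequenced on an Illumina HiSeq, per the labels' protocols. The authors deposited raw read counts per gene for 20659 gene models and 75 libraries, not normalized. The submitters' processing notes name Trimmomatic, STAR 2.5.3a and HTSeq. The genome build, the annotation and whether counting used strand: not given in the sources used here. Reads shared between similar copies, overlapping genes or antisense genes could therefore not be recognised. The file's 5 entries for unassigned reads were left out of every fit. Reads with no feature made up 29.7% to 42.6% in the 20 libraries, with 29.7% to 34.5% in day 10 gamergates 1 to 4 and 42.6% in day 10 gamergate 5. Of the identifiers, 0 matched the RefSeq gene table used for names, so the planned lists by product could not be applied and no sequence is shown.

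All 25 ovary libraries were fitted in edgeR 4.0.16 (R 4.3.3) with 1 coefficient per group, filterByExpr (minimum count 10, minimum total 15), TMM scaling and the robust quasi-likelihood test. Adjustment was by Benjamini-Hochberg over all genes tested, with a threshold of 0.05. The biological coefficient of variation was 0.282. Standard errors were computed back from the F statistic and restate the test. CPM uses TMM-scaled library sizes. The fit was tested on simulated data with the same spread for every gene and no library standing apart. That test therefore does not bear on the libraries that stand apart here. Members and gene lists were chosen with earlier results of these data known. The rule for printed identifiers took at most 2 per direction with the largest interaction, for all called genes and for each class, requiring 10 CPM or more on average in the highest group and no caste overlap at day 10. The 2 smallest p-values per direction were added after their values were seen. Tissue-enriched genes had a log2 fold above 3 against both other tissues at day 0, adjusted p below 0.05 and at least 10 CPM. Alternatives used DESeq2 1.42.0, limma 3.58.1, other scaling, filters, terms and libraries left out.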

Additional observations from a re-analysis of the deposited data

Results flagged for a closer look

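A difference between the 2 days' caste contrasts was tested for every gene, which puts the 1042 higher and 786 lower genes here as differences between groups. The identifiers described had log2 interactions of 18.72 (HSALG011967.1), 12.61 (HSALG024994.1), 11.76 (HSALG026570.1), 10.10 (HSALG012250.2), 9.79 (HSALG006317.2), 7.76 (HSALG001380.2), 2.48 (HSALG011353.1) and 0.98 (HSALG004877.1) in the higher direction. In the lower direction they were -5.53 (HSALG021758.1), -4.88 (HSALG000397.2), -4.13 (HSALG002203.2), -3.64 (HSALG026927.1), -2.91 (HSALG024763.1), -2.54 (HSALG024989.1) and -1.26 (HSALG006197.2). Between tissues, 193 genes differed from fat body and 26 from brain. These include HSALG026927.1 (-8.41 against fat body) and HSALG006317.2 (9.67 against fat body and 11.14 against brain).

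Single libraries lay far from the other 4 of their group by Dixon's test in 12 of 100 groups examined. The test's nominal rate is 5%, but most of these groups hold identifiers picked by their interactions in the same libraries. An excess over 5% can therefore not be read from this count. Identifier levels were examined as log2(CPM + 1). Day 3 worker 4 stood out for HSALG012250.2 (787.3 CPM against 1.92 to 4.68), HSALG006317.2 (307.1 CPM against 1.63 to 3.84) and HSALG026570.1 (29.89 CPM against 0 to 0.713). Day 10 gamergate 5 stood out for HSALG012250.2 (2.833 CPM against 460.3 to 669), for HSALG026570.1 (0.7082 CPM against 22.8 to 45.2) and for the median score of the genes higher in the interaction (0.01807 against 0.39 to 0.47). Day 3 worker 5 had 824.1 CPM of HSALG024994.1, against 4.99 to 14.9. Day 3 worker 1 had 0 CPM of HSALG001380.2, against 2.01 to 2.88. For HSALG024989.1, day 3 gamergate 1 had 1.245 CPM and day 10 worker 4 had 14.48 CPM. For HSALG004877.1, day 0 library 2 had 87.47 CPM and day 10 worker 5 had 65.92 CPM.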

How the results depend on the processing

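No described identifier changed direction under any alternative, though with 1 library left out calls were lost in 43 cases and kept in 332, and under the other alternatives lost in 30 and kept in 119. Counts are given as higher, lower, placed with gamergates, with workers, with both, larger gamergate change and larger worker change (all libraries: 1042, 786, 197, 879, 41, 24 and 83). DESeq2 gave 1103, 1018, 315, 1084, 102, 37 and 152. Without a filter on low counts, higher genes were 639 and the last 5 counts 127, 522, 22, 8 and 32. The 4 groups alone gave 99 gamergate, 21 both, 9 and 43. With flow cell by lane as a term all 7 counts were 0. With flow cell and lane as 2 additive terms 1630 genes were called, but the last 5 counts were 0. The contrasts within a caste and within a day then rest on day 0 libraries. Voom with quality weights gave 1797, 1667, 1349, 1112, 558, 398 and 388. Chosen after seeing the data, leaving out day 10 gamergate 5, day 3 gamergate 1 and day 3 worker 4 gave 1192, 1210, 1145, 561, 221, 398 and 69. Leaving out only the day 3 pair gave 655, 558, 533, 299, 60, 89 and 41. The replicate numbers did not pair the libraries (10 of 30 same-number pairs correlated above 0.1, and 5 of 20 libraries matched their own number best). The replicate block gave 1041, 828, 229, 902, 48, 18 and 96. RLE size factors called 1845 genes. The cause was not tested for any of these shifts.

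Leaving out 1 library gave 471 to 1455 higher, 427 to 1375 lower, 31 to 668 gamergate, 298 to 1539 worker and 4 to 228 both, with 3 to 95 larger gamergate and 28 to 257 larger worker changes. Brain-enriched reads passed the threshold with a list at log2 fold above 2 (-0.537 points, exact permutation p = 0.0308). With the lists at log2 fold above 3, leaving out 1 library gave -0.244 to -0.130 points for brain, 0.708 to 1.26 for ovary and -1.05 to -0.465 for fat body. Without day 10 worker 5 the brain share had an exact permutation p of 0.036, also not adjusted. Differences between tissues were called for 251 and 22 genes with RLE. Depth limits genes with few reads, such as those at 0 to 6 reads in a group.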
